A study of Mus musculus with 20 samples.

Results

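The transcripts described here are those of 10 genes that hold reactive oxygen species and metal ions in check in the liver: the metallothioneins *Mt1* and *Mt2*, the superoxide dismutases *Sod1* and *Sod2*, catalase (*Cat*), the glutathione peroxidases *Gpx1* and *Gpx4*, the peroxiredoxins *Prdx1* and *Prdx6* and thioredoxin (*Txn1*). Every probe whose RefSeq accession belongs to one of these genes was taken, which gave 12 of the 41174 probes on the array. All 12 probes were present (27346 probes were), where presence means a liver signal beyond the negative control limit in no fewer than 4 of the 5 mice of some group. *Prdx6* had 3 probes, and the other 9 genes had 1 each.

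Liver RNA came from 20 male Muta™Mouse animals, labeled as transgenic mouse strain 40.6 and aged 25 weeks, which carry a *lacZ* reporter transgene for scoring mutations. The mice received benzo(a)pyrene (BaP), a polycyclic aromatic hydrocarbon that the liver turns into DNA-binding metabolites, by oral gavage over 28 days, and were killed 3 days after the last dose. There were 5 controls given olive oil alone (mice 1 to 5), 5 mice given 25 mg/kg/day, here the low dose (mice 6 to 10), 5 given 50, the middle dose (mice 11 to 15), and 5 given 75, the high dose (mice 16 to 20). Each mouse had 1 two-color array, with liver RNA in Cyanine 5 and a universal reference RNA pooled from 11 mouse cell lines in Cyanine 3. Values are log2 ratios of liver over reference, so that a value of 0 is equal brightness in both channels, and a fold change is the difference between groups in these ratios. The 20 arrays lay on 6 slides. Place on the slide went almost entirely with dose: all 5 low dose arrays were at place 2 and all 5 high dose arrays at place 4. Hence the effects of place and dose cannot be told apart.

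Superoxide dismutases convert superoxide to hydrogen peroxide, which catalase, the glutathione peroxidases and the peroxiredoxins then reduce, *Prdx1* with the help of thioredoxin. Metallothioneins are small, cysteine-rich proteins that bind zinc, copper and cadmium, and their genes are switched on in liver by zinc through the transcription factor MTF-1, by glucocorticoids and in the acute-phase response. Quinone metabolites of BaP can cycle between oxidation states and generate reactive oxygen, so that the genes of this defense are of interest in exposed liver. The arrays asked whether their transcripts were altered at any dose.

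None of the 12 probes passed the test at any dose. A transcript was called when its adjusted *P* was below 0.05 (limma, Benjamini-Hochberg over all present probes) and its fold change was above 1.5. Of the 12 probes, 0 were called at 25, at 50 and at 75 mg/kg/day, beside 0%, 0% and 0.135% of all present probes (37 probes at the high dose, 36 higher and 1 lower). A trend with dose was called for 0 of the 12 (0.157% of all present probes), and a difference among any of the groups for 0 of the 12 (0.0805%). In 0 of the 12 did all exposed arrays of a dose lie beyond all controls, which was so for 1.21%, 0.815% and 1.52% of all present probes at the 3 doses in rising order. At an unadjusted *P* below 0.05 there were 3, 4 and 2 of the 12 probes, against 7.81%, 6.7% and 11.2% of all present probes. The members' log2 fold changes had a median of 0.12 at 25, 0.09 at 50 and 0.10 at 75 mg/kg/day, and the median over all present probes was 0 at each dose. Behind these medians stood 2 very different patterns: the metallothioneins spread over a wide range among mice, and the 8 enzyme and thioredoxin transcripts kept within 1.5-fold of control on average.

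**Figure D1:**
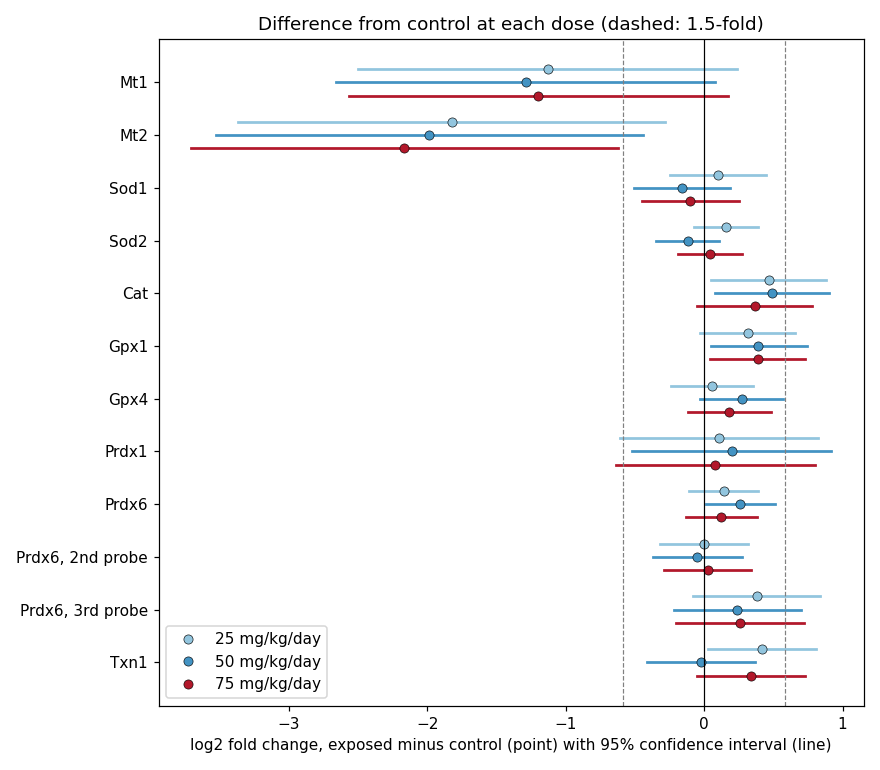
Difference from control of each of the 12 probes at 3 doses of BaP (colors), as log2 fold change (x axis) with its 95% confidence interval (line); dashed lines mark a 1.5-fold change in either direction. The estimates for *Mt1* and *Mt2* lie between -2.17 and -1.13 with wide intervals, and those of all other probes lie between -0.16 and 0.49.

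*Mt1* and *Mt2* are neighboring genes on chromosome 8, and their promoters are shown because the mice with high *Mt1* were also those with high *Mt2*. Any part of the promoter sites in that pattern was not tested. Each window, from RefSeq (build GRCm38.p6), runs from 250 bases before to 50 bases after the transcript start. Capitals mark matches to the core of the metal response element, the site bound by MTF-1, searched as TGCACNC and TGCGCNC on both strands.
*Mt1*, chr8:94178839-94179138, + strand: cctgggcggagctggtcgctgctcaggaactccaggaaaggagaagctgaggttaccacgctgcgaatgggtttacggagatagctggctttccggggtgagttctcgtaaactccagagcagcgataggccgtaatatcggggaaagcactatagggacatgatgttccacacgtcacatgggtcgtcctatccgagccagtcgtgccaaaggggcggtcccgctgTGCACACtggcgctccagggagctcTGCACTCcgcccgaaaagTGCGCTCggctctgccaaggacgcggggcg
*Mt2*, chr8:94172368-94172667, + strand: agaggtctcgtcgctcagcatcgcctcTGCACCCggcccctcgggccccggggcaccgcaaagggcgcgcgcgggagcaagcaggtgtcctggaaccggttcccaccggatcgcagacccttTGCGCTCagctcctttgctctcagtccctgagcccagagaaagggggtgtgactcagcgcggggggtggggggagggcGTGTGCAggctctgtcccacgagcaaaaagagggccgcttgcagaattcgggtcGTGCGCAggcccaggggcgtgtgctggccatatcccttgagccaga
The *Mt1* window held 3 matches and the *Mt2* window 4. At least 1 match was found in 25.7% of the 32851 promoter windows of this length, at least 2 in 7.11% and at least 4 in 0.517%. Windows were found for 9 of the 10 genes, and the remaining 7 (*Sod1*, *Sod2*, *Cat*, *Gpx1*, *Gpx4* with 4 windows, *Prdx1* and *Txn1*) held 0 matches to either form. The core of the antioxidant response element, TGACNNNGC, through which NRF2 acts, was found once each in the windows of *Mt2*, *Sod1* and *Prdx1*, and in 12.4% of all windows. The letters of the *Mt2* match do not overlap those of its metal response cores.

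*Mt2* was read from 1 spot per array. In the controls its log2 ratio was -4.05, 0.16, 0.64, -3.52 and 0.06 in mice 1 to 5. At 25 mg/kg/day it was -3.59, -1.52, -3.81, -3.45 and -3.47 in mice 6 to 10, at the middle dose -3.84, -1.71, -4.09, -3.46 and -3.55 in mice 11 to 15, and at the high dose -3.05, -3.58, -3.79, -3.71 and -3.42 in mice 16 to 20. Controls 2, 3 and 5 were higher than every exposed mouse, whereas controls 1 and 4 lay among the exposed mice. Mouse 13, at 50 mg/kg/day, was the one exposed mouse below the lowest control. Mice 7 and 12 stood between the high controls and the rest. From the lowest to the highest array *Mt2* covered 26.5-fold.

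The mean log2 ratio of *Mt2* was -1.34 ± 2.25 (SD, n = 5) in controls, -3.17 ± 0.93 at 25, -3.33 ± 0.94 at 50 and -3.51 ± 0.29 at 75 mg/kg/day. Its log2 fold change was -1.82 (SE 0.74, limma adjusted *P* = 0.636) at 25, -1.99 (SE 0.74, limma adjusted *P* = 0.685) at 50 and -2.17 (SE 0.74, limma adjusted *P* = 0.286) at 75 mg/kg/day. The last is a mean 4.49 times lower than in controls, with a 95% confidence interval on the log2 scale from -3.71 to -0.62. The limma interval and *P* assume 1 spread shared by all groups. The SD of *Mt2* was 2.25 in controls and 0.29 at 75 mg/kg/day, so the interval may be too narrow. At each dose the log2 fold change of *Mt2* was the lowest estimate among the 27346 present probes. Counted from the smallest unadjusted limma *P*, *Mt2* had rank 954 at 25, 570 at 50 and 799 at 75 mg/kg/day. The unadjusted limma *P* were 0.0229, 0.0143 and 0.00836. The exact two-sided permutation test of *Mt2* alone, over all 252 relabelings of 5 exposed and 5 control arrays, gave *P* = 0.151 at 25, 0.119 at 50 and 0.143 at 75 mg/kg/day. Each of these *P* is the share of relabelings with a difference at least as large in size, and none was below 0.05.

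*Mt1* was read from 10 spots per array, which show how well a ratio repeats within an array. Its log2 ratio was -3.48, 0.54, 0.76, -2.94 and -0.68 in controls 1 to 5. It was -2.32, -0.95, -3.04, -2.39 and -2.76 in mice 6 to 10, -3.03, -1.05, -2.62, -2.66 and -2.87 in mice 11 to 15, and -2.05, -2.70, -2.70, -2.80 and -1.57 in mice 16 to 20. The same 3 controls were the highest of the 20 mice, and control 1 was the lowest. The range from lowest to highest was 18.9-fold. Between the 10 spots of an array the SD was 0.0352 to 0.106, with a median of 0.062 (5 of 200 spots were left out as outliers), and the widest range between spots of an array was 0.343. These spots share the labeling, the hybridization and the slide, so that their SD leaves out the error between arrays.

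The mean log2 ratio of *Mt1* was -1.16 ± 1.96 (SD, n = 5) in controls, -2.29 ± 0.81 at 25, -2.45 ± 0.80 at 50 and -2.36 ± 0.53 at 75 mg/kg/day. Log2 fold changes were -1.13, -1.29 and -1.20 (SE 0.66 each), with limma adjusted *P* of 0.675, 0.753 and 0.504. Exact two-sided permutation *P* values for *Mt1* were 0.262, 0.238 and 0.23. The 3 dose groups share the same controls, so the estimates at the 3 doses are not independent of each other.

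**Figure D2:**
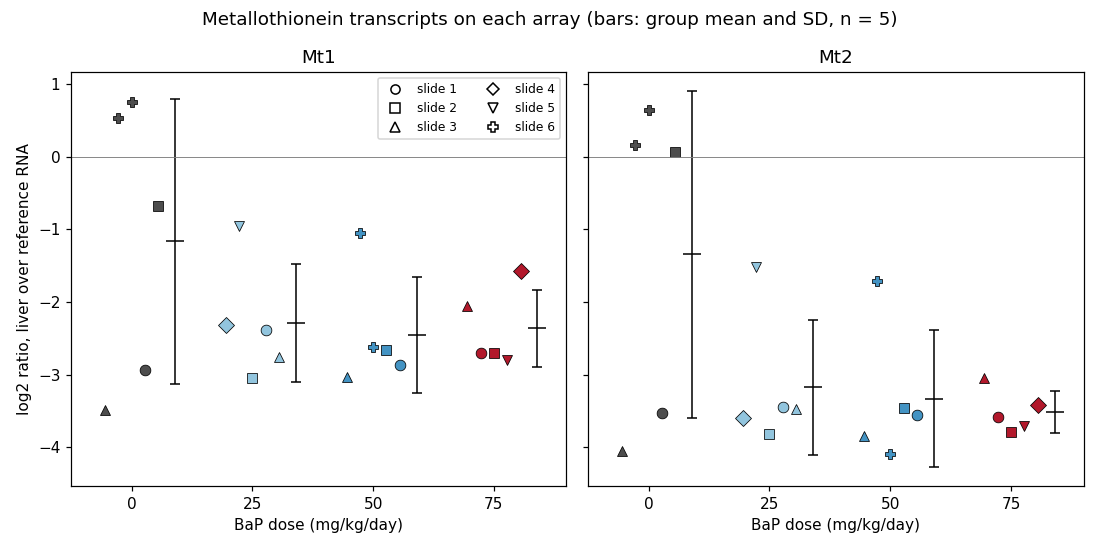
Log2 ratio of liver over reference RNA (y axis) for *Mt1* (left) and *Mt2* (right) on each array by BaP dose (x axis); symbols give the slide, and bars give the group mean and SD (n = 5). Controls 2 and 3 (slide 6) and control 5 (slide 2) lie above all exposed mice, while controls 1 and 4 lie at -4.05 and -3.52 for *Mt2*.

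The same values are given here by slide. Controls 2 and 3 shared slide 6 with mice 12 and 13, of which mouse 13 had the lowest *Mt2* of all at -4.09. Control 5 was on slide 2, where the exposed mice 8, 14 and 18 were at -3.81, -3.46 and -3.79. On slides 1 and 3, exposed minus control for *Mt2* was between -0.05 and 1.00, and on slides 2 and 6 it was between -3.88 and -3.30. Without the 4 arrays of slide 6 the log2 fold change of *Mt2* at 75 mg/kg/day was -1.0 (limma adjusted *P* = 0.439), and that of *Mt1* was 0.01 (limma adjusted *P* = 0.997). Leaving out slide 6 also takes out controls 2 and 3, so it cannot tell slide from mouse. At the low and middle doses the same omission left *Mt2* at -0.66 and -1.11, and *Mt1* at 0.08 and -0.48. Without control 1 the estimate for *Mt2* moved to -2.84, with the smallest adjusted *P* of any setting (0.0685, limma). With slide as a fixed block it was -1.63 (limma adjusted *P* = 0.375). In the liver channel alone, after background correction and loess, *Mt2* covered 10.79 to 15.56 on the log2 intensity scale (SD 1.33 over the 20 arrays) and in the reference channel 14.89 to 16.10 (SD 0.396).

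Among mice of the same group, the pooled SD of the log2 ratio was 1.31 for *Mt2* and 1.16 for *Mt1*, against a median of 0.217 over the present probes. That placed *Mt2* at the 99.9th percentile, with 38 probes at or above its SD, and *Mt1* at the 99.8th. The groups were unequal: the SD of *Mt2* was 2.25 in controls and 0.29 at 75 mg/kg/day, and that of *Mt1* was 1.96 and 0.53. *Prdx1* (SD 0.604) stood at the 97.9th percentile. The SDs of the remaining genes ran from 0.167 for *Sod2* to 0.335 for *Cat*, at percentiles from 25.1 to 83.3. Differences between slides made up 47.9% of the sum of squares of *Mt1* and 35.8% of that of *Mt2*, beside a median of 40.2% over all present probes.

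**Figure D3:**
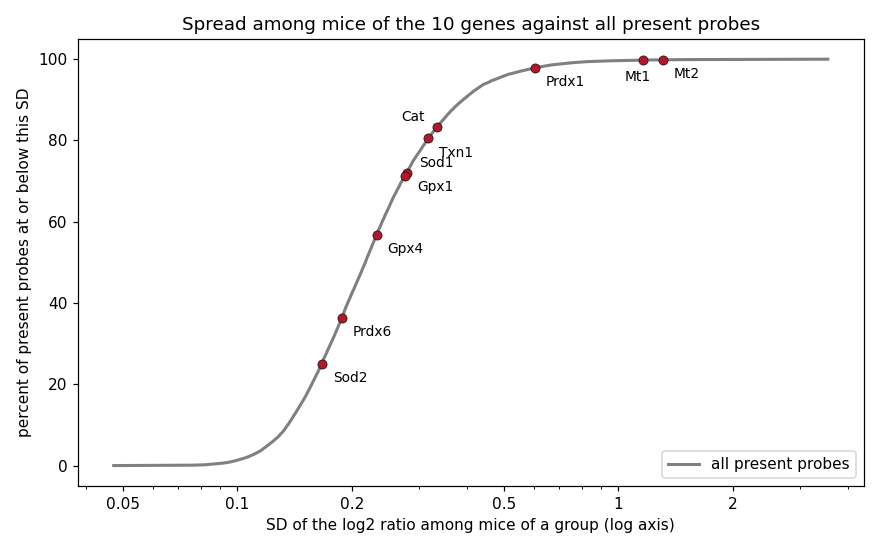
Cumulative percent of present probes (y axis) by the pooled SD of the log2 ratio among mice of a group (x axis, log scale), with the 10 genes as points. *Mt1* (1.16) and *Mt2* (1.31) lie in the upper end of the curve, and *Sod2* (0.167) is the least variable of the 10.

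By *Mt2* the arrays fell into separate sets: controls 2, 3 and 5 (0.06 to 0.64), mice 7 and 12 (-1.52 and -1.71) and 15 mice between -4.09 and -3.05. *Mt1* put the same mice in the upper sets, and a correlation over all arrays would rest on them. Within the 15 lower arrays, group means removed, Pearson's r of *Mt1* and *Mt2* was 0.55 (*P* = 0.0693, 100000 permutations within groups, two-sided) and Spearman's rho was 0.59 (permutation *P* = 0.028). The 15 arrays were chosen by *Mt2* itself after its values were seen, so these *P* are descriptive only. Without the 2 arrays farthest from the median of *Mt1* (control 1 and mouse 20), r was 0.58. With slide means removed in place of group means, it was 0.87. *Mt1* and *Mt2* are similar in coding sequence, and how far either probe takes up the other transcript was not tested.

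**Figure D4:**
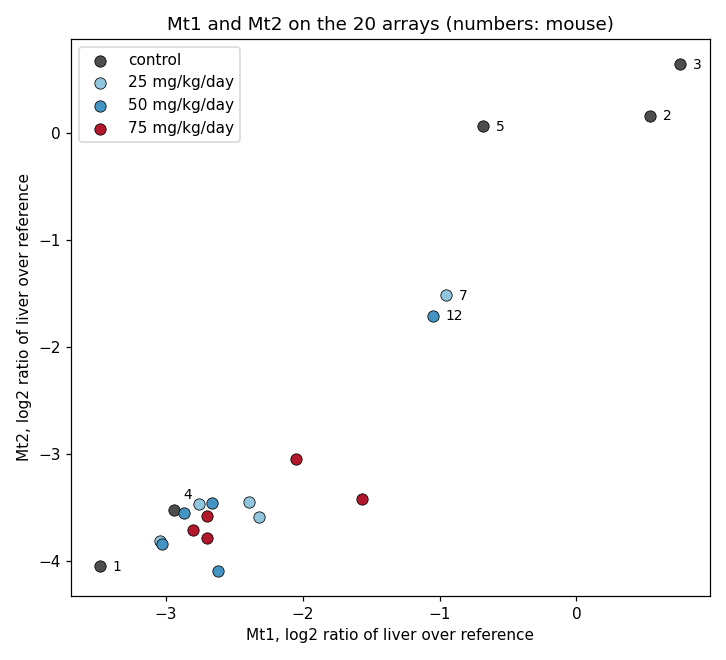
Log2 ratio of *Mt2* (y axis) against that of *Mt1* (x axis) on the 20 arrays, colored by dose; the numbers name the mice. Controls 2, 3 and 5 lie at the upper right, mice 7 and 12 between, and 15 mice, controls 1 and 4 among them, at the lower left.

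The genes whose log2 ratios followed the mean of *Mt1* and *Mt2* most closely, over 20 arrays with group means removed and 12976 genes compared, were *Cln6* (r = 0.89), *Isyna1* (inositol-3-phosphate synthase, 0.88), *Tmco4* (0.87), *Cd14* (a co-receptor for bacterial lipopolysaccharide, 0.86) and *Tmc6* (0.84). Over the 15 exposed arrays alone, r was 0.86, 0.70, 0.88, 0.69 and 0.77. These r include the few mice with high metallothionein. *Saa3*, an acute-phase serum amyloid, and *Lcn2*, lipocalin-2, an iron-scavenging protein of the acute phase, had r of 0.81 and 0.79, and are named after their values were seen. Each had the highest r of the list it was examined in. These were 10 acute-phase genes (r from -0.28 to 0.81) and, for *Lcn2*, the 8 glucocorticoid-responsive genes tested (r from -0.50 to 0.79). *Lcn2* had a log2 ratio of 4.34, 4.08 and 3.95 in controls 2, 3 and 5, and of 1.20 and -0.09 in controls 1 and 4. *Saa3* was at 4.69, 5.32 and 5.04 in controls 2, 3 and 5, and at 3.69 and 2.77 in controls 1 and 4. In mice 7 and 12, *Saa3* was at 5.24 and 5.07, but mouse 6, with *Mt2* at -3.59, had *Saa3* at 5.21. The related *Saa1* did not follow the metallothioneins among the controls: it was highest in control 1 (4.54), against 3.66, 4.07 and 4.23 in controls 2, 3 and 5. *Saa2* was at 3.98 in control 1 and at 3.78, 4.08 and 3.57 in controls 2, 3 and 5. In mice 7 and 12, *Lcn2* was at 2.73 and 3.68. The highest *Lcn2* of the exposed mice was in mouse 12, while mice 16 (3.41) and 8 (3.38) had high *Lcn2* and low *Mt2*. Of the 10 acute-phase genes examined, 0 were called at any dose (10 tested), and of the 10 glucocorticoid-responsive genes, *Lcn2* among them, 0 of the 8 tested were. At 75 mg/kg/day their median log2 fold changes were 0.24 and 0.09.

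Catalase, the peroxisomal enzyme that breaks down hydrogen peroxide, was the most liver-enriched of these transcripts relative to its own level in the reference. Its log2 ratio was 5.77, 5.45, 5.06, 4.68 and 4.57 in controls, 6.01, 5.41, 5.65, 5.31 and 5.49 at the low dose, 5.53, 5.54, 5.86, 5.80 and 5.24 at the middle dose and 5.15, 5.36, 5.62, 5.49 and 5.75 at the high dose. Controls 4 and 5 were the lowest of the 20 mice, and the groups overlapped at every dose. *Cat* had log2 fold changes of 0.47, 0.49 and 0.37 (SE 0.20 each), that is 1.38-, 1.40- and 1.29-fold, with limma adjusted *P* of 0.636, 0.707 and 0.498. The 95% confidence interval of its fold change at 75 mg/kg/day was 0.969 to 1.71.

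*Gpx1*, the cytosolic selenoenzyme that reduces hydrogen peroxide with glutathione, had estimates of the same sign. Its log2 ratio was 3.13, 2.96, 2.43, 2.56 and 2.62 in controls, 3.50, 2.80, 3.00, 2.92 and 3.06 at the low dose, 3.23, 2.65, 3.29, 3.59 and 2.91 at the middle dose, and 3.09, 3.29, 3.03, 3.05 and 3.18 at the high dose. All 5 mice at 75 mg/kg/day were above 4 of the 5 controls, and 2 were above all 5. Log2 fold changes were 0.32, 0.39 and 0.39 (SE 0.17 each), with limma adjusted *P* of 0.655, 0.719 and 0.384, and the interval of the fold change at 75 mg/kg/day was 1.03 to 1.66. *Gpx4*, which reduces lipid hydroperoxides in membranes, had log2 fold changes of 0.06, 0.27 and 0.18 (SE 0.14 each), the largest adjusted *P* being 0.940 and the smallest 0.671 (limma). Its ratios ran from -0.29 to 0.56 in controls and from -0.11 to 0.50 in the exposed mice.

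Hepatocyte and erythroid transcripts had log2 fold changes of the same sign as *Cat* and *Gpx1*, and so did most endothelial and macrophage markers. Above 0 were 8 of 9 endothelial markers at each dose, and 8, 9 and 9 of 10 macrophage markers at the 3 doses in rising order. Among bile duct markers these counts were 2, 2 and 4 of 7, and among T cell markers 2, 1 and 1 of 5. Of the 8 hepatocyte markers examined (*Alb*, *Ttr* and others), all were above background on every array, and their mean log2 ratio was 4.51 in controls (3.91 to 5.31 over the mice), 4.89 at 25, 4.86 at 50 and 4.98 at 75 mg/kg/day (4.60 to 5.20 over the exposed mice). At each dose 8 of 8 had a log2 fold change above 0, and 0 of 8 were called. The 4 erythroid markers with a present probe (of 11 listed) also had log2 fold changes above 0 at each dose, with a mean log2 ratio of 3.79 in controls (3.36 to 4.10 over the mice) and 4.06, 4.06 and 4.19 at the 3 doses. None of the 4 was called. At 75 mg/kg/day an unadjusted limma *P* below 0.05 was found for 3 of the 4 and for 6 of the 8 hepatocyte markers, beside 11.2% of all present probes. For the hepatocyte markers, controls 4, 2 and 3 had the lowest means of all 20 mice, at 3.91, 4.18 and 4.32. The part of any of these marker groups in the values of *Cat* and *Gpx1* was not tested. In RNA from whole tissue, fewer cells of a type and less transcript per cell cannot be told apart. In the liver channel alone, *Cat* and *Gpx1* at 75 mg/kg/day had log2 fold changes of 0.07 and 0.09.

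*Sod1* encodes the cytosolic copper and zinc dismutase and *Sod2* the manganese dismutase of mitochondria. The log2 ratio of *Sod1* was 2.50, 1.78, 1.64, 2.30 and 2.55 in controls, 2.30, 2.06, 2.37, 2.36 and 2.19 at the low dose, 1.83, 1.72, 1.91, 2.33 and 2.17 at the middle dose, and 1.86, 2.26, 2.23, 1.75 and 2.18 at the high dose. Every exposed value lay between the lowest and the highest control. Log2 fold changes were 0.10, -0.16 and -0.10 (SE 0.17 each), and the 95% confidence interval of the fold change at 75 mg/kg/day was 0.733 to 1.19. Differences between slides made up 67.7% of its sum of squares. Controls 2 and 3, with high *Mt1* and *Mt2*, had low *Sod1* among the controls, but control 5 had the highest *Sod1* of all.

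*Sod2* varied least among the mice of a group. Its log2 ratio was 1.58, 1.33, 1.56, 1.89 and 1.63 in controls, 1.86, 1.65, 1.76, 1.62 and 1.92 at the low dose, 1.49, 1.54, 1.33, 1.52 and 1.53 at the middle dose, and 1.52, 1.46, 1.95, 1.48 and 1.79 at the high dose. Log2 fold changes were 0.16, -0.12 and 0.04 (SE 0.11 each), with limma adjusted *P* of 0.728, 0.872 and 0.928. The interval of the fold change at 75 mg/kg/day, 0.876 to 1.21, does not reach a 1.5-fold change in either direction.

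**Figure D5:**
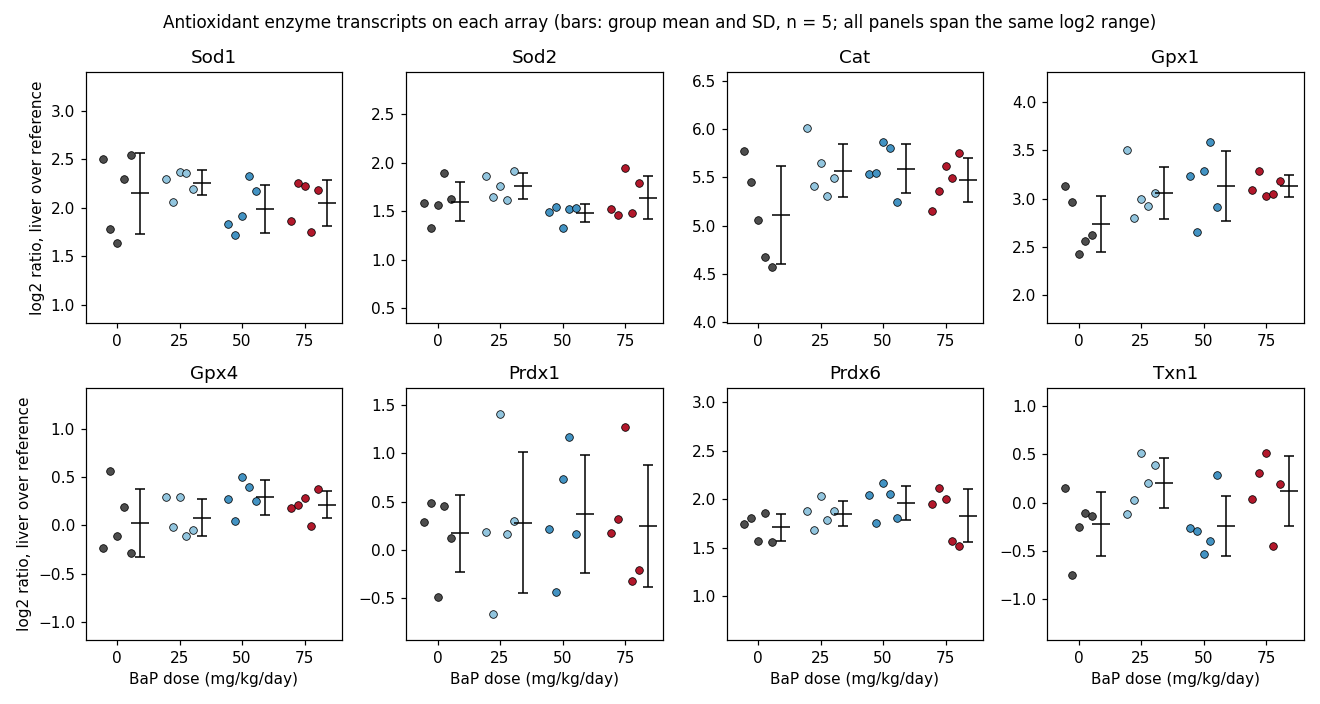
Log2 ratio of liver over reference (y axis) for 8 antioxidant transcripts on each array by BaP dose (x axis); each panel spans the same log2 range around its own level, and bars give the group mean and SD (n = 5). Exposed and control mice overlap in every panel, and *Prdx1* shows the widest scatter within groups.

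The peroxiredoxins reduce peroxides by a cysteine of their own. The log2 ratio of *Prdx1* was 0.29, 0.48, -0.49, 0.45 and 0.12 in controls, 0.19, -0.66, 1.40, 0.16 and 0.30 at the low dose, 0.22, -0.43, 0.73, 1.17 and 0.16 at the middle dose, and 0.18, 0.32, 1.27, -0.32 and -0.21 at the high dose. Mice 8, 14 and 18, the 3 highest, were all on slide 2. The control on slide 2, the last in the list of controls above, was at 0.12. On that slide, exposed minus control for *Prdx1* was 1.27 at the low, 1.04 at the middle and 1.15 at the high dose. On the other slides that held a control it was between -0.30 and 0.16. The cause of the high values was not tested. Differences between slides made up 59.7% of the sum of squares of *Prdx1*, against 1.7% between dose groups. Log2 fold changes were 0.11, 0.20 and 0.08 (SE 0.34 each), with an interval of the fold change at 75 mg/kg/day from 0.641 to 1.74. That interval reaches past a 1.5-fold change in both directions.

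*Prdx6*, which acts without a second cysteine and also has phospholipase activity, was read by 3 probes. On the brightest, the ratio ran from 1.56 to 1.86 in controls, 1.68 to 2.03 at 25, 1.75 to 2.17 at 50 and 1.52 to 2.11 at 75 mg/kg/day, with log2 fold changes of 0.14, 0.26 and 0.12 (SE 0.12 each). The second probe gave log2 fold changes of 0.00, -0.05 and 0.03. The third, a dim probe that was well above background in the reference channel on 17 arrays, gave 0.38, 0.24 and 0.26. None of the 3 was called.

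*Txn1*, which returns oxidized peroxiredoxins such as *Prdx1* to their reduced form, had a log2 ratio of 0.15, -0.75, -0.25, -0.11 and -0.14 in controls. At the low dose it was -0.12, 0.03, 0.51, 0.20 and 0.39. At the middle dose it was -0.26, -0.29, -0.53, -0.40 and 0.28, and at the high dose 0.04, 0.30, 0.51, -0.45 and 0.19. In 3 of 5 mice at the low dose and 3 of 5 at the high dose it was above all controls, as it was in 1 of 5 at the middle dose. Log2 fold changes were 0.42, -0.02 and 0.34 (SE 0.19 each), with limma adjusted *P* of 0.636, 0.988 and 0.513. The slope with dose was not called (limma adjusted *P* = 0.863).

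Of the 28 pairs among the 8 genes other than the metallothioneins, 1 passed adjustment over all 45 pairs by Pearson's r and 3 did so by Spearman's rho. *Prdx1* and *Prdx6* had r = 0.75 over 20 arrays with group means removed (permutation *P* = 0.00027, adjusted 0.00607) and rho = 0.83 (permutation *P* = 7e-05, adjusted 0.00315). Without the 2 arrays farthest from the median of *Prdx1*, r was 0.75. With slide means removed as well as group means it was 0.78. Every r of *Prdx6* given here used its brightest probe. In mice 8, 14 and 18, the highest for *Prdx1*, that probe was at 2.03, 2.05 and 2.00, above all controls. The next brightest probe was at 2.22, 1.98 and 2.20 in these mice, within its control range of 1.89 to 2.52. The dim probe was at 1.96, 1.70 and 1.60, above its highest control (1.29). Pairs with these other probes were not tested. *Sod1* and *Txn1* had rho = 0.65 (permutation *P* = 0.00314, adjusted 0.0353) and r = 0.58 (permutation *P* = 0.0153, adjusted 0.0908), and r was 0.68 without the 2 farthest arrays and 0.21 with slide means also removed. *Gpx4* and *Prdx6* had rho = 0.59 (permutation *P* = 0.00299, adjusted 0.0353) and r = 0.49 (permutation *P* = 0.0188, adjusted 0.0941), and r was 0.50 without the 2 farthest arrays and 0.71 with slide means also removed. *Cat* and *Gpx1* had r = 0.67 (permutation *P* = 0.00471, adjusted 0.0706) and 0.73 with slide means also removed. The closest genes outside the set were *Fth1*, the ferritin heavy chain (r = 0.92), *Aplp2* (0.90) and *Rpl23a* (0.89) for *Sod1*, *Slc25a11* (0.78), *Acsl6* (0.77) and *Herc3* (0.76) for *Sod2*, and *Rnf170* (0.84), *Ass1* (0.83) and *Cnn3* (0.83) for *Cat*. For *Gpx1* they were *Acad11* (0.86), *Bco2* (0.84) and *Ech1* (0.83), and for *Gpx4* *Rps15* (0.91), *Znrd2* (0.89) and *Ftsj1* (0.87). For *Prdx1* they were *Syap1* (0.97), *Fbxl4* (0.96) and *Gmfb* (0.96), for *Prdx6* *Cpped1* (0.88), *Gmfb* (0.84) and *Capn7* (0.84), and for *Txn1* *Mtif2* (0.93), *AI987944* (0.92) and *Cdh5* (0.91). These r, over 20 arrays with group means removed, are descriptions, and the arrays share slides: 80.9% of the sum of squares of *Rpl23a* and 68.9% of that of *Aplp2* lay between slides.

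Beyond the 10 genes, 49 others of the same defense were examined in 7 groups, and 46 had a present probe. Of these 0 were called at 25, at 50 and at 75 mg/kg/day. Their median log2 fold changes were 0.07, 0.06 and 0.10, and 26, 27 and 31 of the 46 had a log2 fold change above 0. Unadjusted *P* was below 0.05 for 4, 3 and 9 of them, beside 7.81%, 6.7% and 11.2% of all present probes. In 1, 2 and 2 of the 46 all exposed arrays lay beyond all controls, beside 1.21%, 0.815% and 1.52% of all present probes: *Prdx2*, a cytosolic peroxiredoxin, at the low dose, *Sod3* and *Gpx7* at the middle dose, and *Slc39a4* and *Gpx7* at the high dose.

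*Gpx7*, a glutathione peroxidase of the endoplasmic reticulum, came closest to a call. Its log2 ratio was 0.27, 0.47, 0.58, 0.46 and 0.05 in controls, 1.01, 0.50, 0.65, 0.94 and 0.62 at the low dose, 0.70, 0.61, 0.76, 0.92 and 1.23 at the middle dose, and 1.02, 0.88, 0.94, 0.92 and 1.36 at the high dose. All 5 mice at the middle and all 5 at the high dose were above every control, as were 4 of 5 at the low dose. The log2 fold changes of *Gpx7* were 0.38, 0.48 and 0.66 (SE 0.14 each), and the limma adjusted *P* at 75 mg/kg/day was 0.0547. *Gpx7* passed the call in some other settings, among them the scanner software's processed signals (log2 fold change 1.04, limma adjusted *P* = 0.0404) and slide as a random block (0.65, limma adjusted *P* = 0.0235). It did not pass with slide as a fixed block or in the liver channel alone.

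In the other groups, the gene with the log2 fold change of largest size at 75 mg/kg/day is given, and none was called. Among genes of metal handling, *Slc39a4*, a zinc importer, had a log2 fold change of 0.56 (SE 0.17, limma adjusted *P* = 0.233) and was above every control in 5 of 5 mice. The metallothionein regulator *Mtf1* (-0.23), the zinc exporter *Slc30a1* (-0.31), *Mt3* (-0.05) and *Mt4* (-0.03) are given as fellow members of that group, with adjusted *P* of 0.543 or more (limma). *Gclc*, the catalytic subunit of the enzyme that limits glutathione synthesis, was at 0.49 (SE 0.18, limma adjusted *P* = 0.325). *Glrx3*, a glutaredoxin, was at 0.42 (SE 0.15, limma adjusted *P* = 0.295), and *Prdx3*, the mitochondrial peroxiredoxin, at 0.37 (SE 0.15, limma adjusted *P* = 0.372). *Sod3*, the extracellular dismutase, was at 0.22 (SE 0.10, limma adjusted *P* = 0.44), and at 50 mg/kg/day 0.48, with 5 of 5 mice above every control. Its probe was dim, well above background in the liver channel on 13 arrays. *Sephs2*, which makes the selenium donor for selenoproteins, was at 0.24 (SE 0.50, limma adjusted *P* = 0.897).

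The tissue matched its label of liver by the 8 hepatocyte markers. Of 8 lung epithelial markers, 5 had a present probe and 1 was above background on all arrays, and the labels name lungs as well as liver. Neutrophil markers had a mean log2 ratio of 0.40 to 0.84 in controls and 0.54 to 1.25 in exposed mice, with 0 of the 5 tested called. Macrophage markers ran from 2.29 to 2.65 in controls and from 2.44 to 3.19 in exposed mice, with 1 of 10 called at 75 mg/kg/day, the scavenger receptor *Marco* (log2 fold change 2.19, limma adjusted *P* = 0.00148). Endothelial markers, among which *Cdh5* followed *Txn1*, ran from 2.21 to 2.89 and from 2.74 to 3.47, with 1 of 9 called at that dose, the hyaluronan receptor *Lyve1* (log2 fold change 2.23, limma adjusted *P* = 0.0189). What these shifts contribute to the values above was not tested.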

How the data were processed

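Liver RNA of 20 mice was hybridized, 1 array each, against the common reference. The median spot and background intensities were deposited by the authors as extracted by the scanner software (Feature Extraction 10.1.1.1 in the file headers), on a linear scale and not normalized. The processed intensities deposited beside them were background subtracted and dye normalized by that software, and the log2 ratios deposited by the authors were LOWESS normalized. The software's marks for spots well above background, saturated or outlying were used as deposited; 0 member probes were saturated.

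Median intensities were corrected by normexp (offset 50) and normalized by loess within arrays. Outlier spots were left out, and the spots of each probe were averaged as log2 ratios. Across probes, which are not independent replicates, the authors' ratios and these had r of 0.995 to 0.997. Presence followed the methods of the study (trimmed mean, trim 5%, plus 3 trimmed SDs of 153 negative control spots). Symbols came from RefSeq accessions (GRCm38.p6) for 23374 probes. Where a gene had several probes, the brightest present probe stood for it. limma 3.58.1 with statmod 1.5.0 in R 4.3.3 was used in place of MAANOVA, in 1 model of all 20 arrays; the fit was tested on simulated data. The plots used Python 3.11.15 with matplotlib 3.10.9. The planned correlation of *Mt1* with *Mt2* over 20 arrays was replaced by one within the 15 arrays with a *Mt2* log2 ratio below -2.5, because the arrays fell into separate sets.

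The genes, lists and tests were chosen with earlier results of these data known. Named were all member probes, of the other defense genes those called and the one with the largest change at 75 mg/kg/day in each group, and the 5 genes most correlated with the metallothionein mean and the 3 most correlated with each other gene. Outside this rule, *Mtf1*, *Slc30a1*, *Mt3*, *Mt4*, *Prdx2*, *Saa1*, *Saa2*, *Saa3*, *Lcn2*, *Marco* and *Lyve1* were named after their values were seen. The study left out 1 unnamed sample; all 20 are used here. The series design gives 24 mg/kg for the lowest dose, and the 25 mg/kg of the sample labels was used. In the liver channel 51.9% to 67.5% of spots were marked well above background, the most in control 4, and the number of arrays limits the precision.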

Additional observations from a re-analysis of the deposited data

Results flagged for a closer look

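In 4 of the 48 sets of 5 arrays (12 probes in 4 groups), 1 mouse lay farther from the rest than Dixon's limit of 0.71 for 5 samples allows. Chance does this in about 1 in 20 sets. *Mt2* in mouse 7 (25 mg/kg/day) was at -1.52, against -3.45 for the next mouse, a gap of 0.842 of the group's range. *Mt2* in mouse 12 (50 mg/kg/day) was at -1.71, against -3.46, a gap of 0.734. *Mt1* in the same mouse was at -1.05, against -2.62, a gap of 0.796. *Sod2* in mouse 13 (50 mg/kg/day) was at 1.33, against 1.49, a gap of 0.785. The 3 metallothionein values come from 2 mice, since *Mt1* and *Mt2* are not independent of each other.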

How the results depend on the processing

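Across 33 settings, 0 member probes were called at any dose, for a trend or among the groups. Of 1116 fold changes recomputed, 61 changed sign, with neither value called. *Mt1* did so at the low dose (0.08) and the high dose (0.01), both without the 4 arrays of slide 6, a setting added after the data were seen. At 75 mg/kg/day *Mt2* ranged from -2.84 (without control 1) to -1.0 (without slide 6), and its limma adjusted *P* from 0.0685 to 0.568. Leaving out 1 control moved *Mt1* at 25 mg/kg/day from -1.71 (without control 1) to -0.65 (without control 3).

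Of the 46 other defense genes, 1 in place of 0 was called at 75 mg/kg/day with the scanner software's processed signals, with no background subtraction, with the authors' log2 ratios, with slide as a random block and without slide 6, and this was *Gpx7* each time (log2 fold changes 1.04, 0.74, 0.74, 0.65 and 0.76, limma adjusted *P* from 0.0235 to 0.0404). Leaving out 1 array gave 0 to 1 calls, the 1 again *Gpx7*, without control 3, mouse 6, mouse 15 or mouse 19. The cause was not tested. The relation of *Mt1* and *Mt2* had r = 0.89 in the liver channel alone, 0.87 with slide as a fixed block, 0.71 without slide 6 and 0.95 over all 20 arrays together, and 0.50 to 0.71 when each array was left out (past 0.05 without mouse 13 or mouse 20).

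No paired analysis was possible by replicate number because the groups share no numbers. Slide, which several groups share, was fitted as a block instead.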
